A study of Mus musculus with 15 samples.

Results

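The genes described here encode factors that muscle cells secrete, often called myokines. A list of 10 names was drawn up: Ostn, Fndc5, Metrnl, Il15, Il6, Lif, Bdnf, Gdf15, Fstl1 and Dcn. A name was kept where a row of the expression table carried it as its only gene symbol, and the row with the highest mean would stand for a gene with several. This gave 9 genes, each with 1 row, of the 14860 genes that the table names in that way. Gdf15, which encodes a stress-induced hormone, has no such row and was not analysed here.

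The samples were mouse primary myoblasts, the precursor cells of muscle, grown to near confluence and then differentiated in horse serum medium into multinucleate myotubes. At 48 h of differentiation every culture was transduced with adenovirus (multiplicity of infection 100). The control virus expressed GFP alone, and the other viruses expressed GFP together with 1 of the 4 mouse isoforms called PGC-1a1 to PGC-1a4, each protein from a promoter of its own. RNA was taken about 60 h after transduction and 3 arrays were made in each of the 5 groups. All groups, the controls included, therefore carried adenovirus and GFP, and the isoforms were delivered by virus and not induced from the cells' own gene. The sources used here do not state the strain, sex and age of the donor mice. Nor do they state whether replicates came from separate cultures, so a p-value covers only the spread among these arrays, which may be technical.

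PGC-1a is a transcriptional coactivator: it binds no DNA itself and raises transcription through factors such as the estrogen-related receptors. It is induced in muscle by exercise, and its gene gives several isoforms from alternative promoters and splicing. Myokines reach other tissues through the blood or act on neighbouring cells, and several of them are known to change with contraction or with PGC-1a. Fndc5 was described as a PGC-1a target in muscle and Metrnl as a target of PGC-1a4. The array measured their RNA only, not the secreted proteins.

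Promoter windows from RefSeq (GRCm38.p6) were available for 7 of the 10 names, 14 windows in all, and Ostn, Il15 and Dcn had none. The 250 bases before the start are shown for Metrnl (chr11:121702177-121702426), Fstl1 (chr16:37776805-37777054) and Il6 (chr5:30012864-30013113), all on the plus strand. Metrnl and Fstl1 are shown because both rose with PGC-1a4, and Il6 because it fell there. Capitals mark the motif matches.
Metrnl: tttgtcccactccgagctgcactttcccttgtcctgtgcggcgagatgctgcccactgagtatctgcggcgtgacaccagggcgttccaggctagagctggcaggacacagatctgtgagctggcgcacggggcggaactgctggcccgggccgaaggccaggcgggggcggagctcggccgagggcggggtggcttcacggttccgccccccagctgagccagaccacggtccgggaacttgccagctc
Fstl1: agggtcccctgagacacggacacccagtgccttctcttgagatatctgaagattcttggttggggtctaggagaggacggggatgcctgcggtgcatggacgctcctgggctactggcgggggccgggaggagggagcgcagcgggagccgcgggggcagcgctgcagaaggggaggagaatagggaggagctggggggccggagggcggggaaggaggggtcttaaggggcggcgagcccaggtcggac
Il6: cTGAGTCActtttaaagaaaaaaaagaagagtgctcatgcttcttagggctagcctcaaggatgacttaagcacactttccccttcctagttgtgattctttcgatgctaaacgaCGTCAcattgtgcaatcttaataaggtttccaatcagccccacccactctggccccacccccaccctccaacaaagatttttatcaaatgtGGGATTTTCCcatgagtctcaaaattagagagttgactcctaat
The motifs were searched on both strands: the ERR core AAGGTCA, the CRE core TGACG, the AP-1 site TGANTCA, the kappa B site (GGGA and TTTCC with 1 base between) and the MEF2 site (CTA and TAG with 4 bases between). They occur in 4.08%, 17.8%, 6.75%, 0.356% and 3.2% of all 32851 mouse windows of this length. The Il6 window held a kappa B match from 44 to 35 bases before the start, a CRE core match from 135 to 131 and an AP-1 match from 249 to 243, none of which overlap. The Metrnl, Fstl1 and Fndc5 windows held none of these letters, the Lif window held an AP-1 match, and of the 7 Bdnf windows 1 held an AP-1 match and another a CRE core match.

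The values are log2 signals of 23332 rows, each read by several probes of a gene or locus, and array medians lay between 5.476 and 5.659. A difference of 1 on this scale is a factor of 2 in signal. GFP replicate 2 stood apart: its mean correlation with the other GFP arrays was 0.983, against 0.987 for each of the others, its signals spanned the narrowest interquartile range of the 15 arrays, 3.69, and it had the lowest array weight, 0.254. Results against GFP are therefore also given without it where they change, for gene lists mostly as counts and not gene by gene. The Ppargc1a row, which reads the introduced gene, had signals of 8.53 ± 0.38 (SD, n = 3) in GFP, 12.61 ± 0.06 with PGC-1a1 and 10.46 ± 0.14 with PGC-1a4. With PGC-1a2 it read 8.88 ± 0.02 and with PGC-1a3 8.94 ± 0.18, where the differences from GFP did not pass (adjusted p = 0.22 and 0.14). Not every isoform need match all probes of this row, and dose was therefore not read from it. For the PGC-1a4 arrays the source name in the labels reads isoform 1, and the titles, which read PGC-1a4, were followed.

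Over the 5 groups, 6 of the 9 genes differed by limma's F-test at an adjusted p under 0.05: Ostn, Fstl1, Metrnl, Il6, Il15 and Fndc5. The same test called 31.3% of all rows. Bdnf (adjusted p = 0.085), Lif (0.47) and Dcn (0.92) did not pass. On the plot of every array below, the 6 genes that passed have at least 1 group standing clear of others, while the groups of Lif and Dcn lie over each other. Lack of overlap, here and in what follows, only describes the arrays. With 3 arrays against 3, an exact permutation test gives full separation a p of 0.1. The share of all rows without overlap is not given here.

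**Figure D1:**
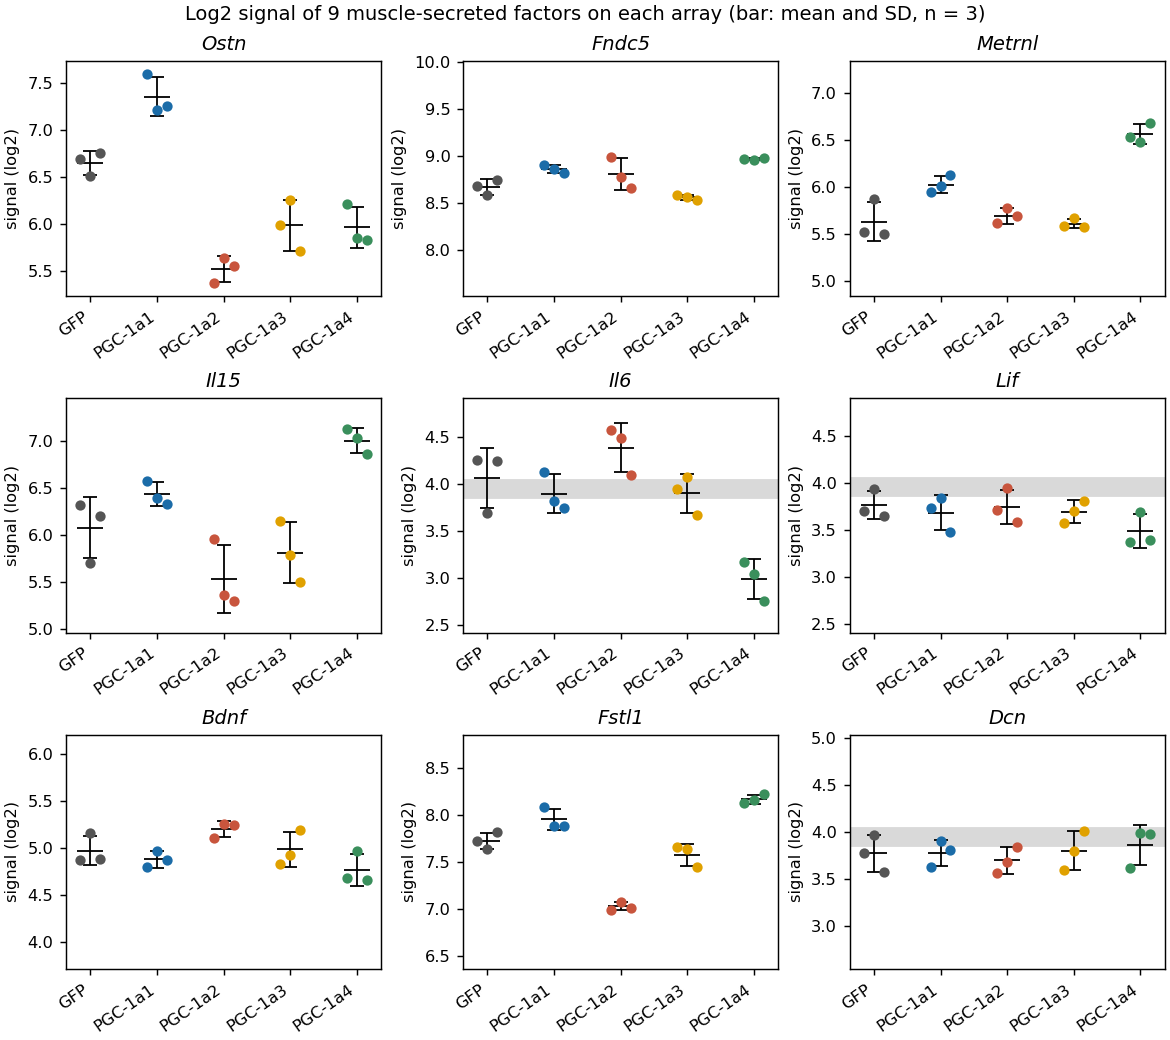
Log2 signal of the 9 genes on each array, by group, with the mean and SD (n = 3) as bars; every panel spans 2.5 log2 units, so heights can be compared within a panel and spreads between panels. Grey bands mark the lower quartiles of the 15 arrays (3.857 to 4.047) where a gene comes near them. The PGC-1a1 points of Ostn lie above those of all other groups, the PGC-1a2 points of Fstl1 below them, and the PGC-1a4 points of Il6 below the grey band.

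Ostn encodes musclin, also called osteocrin, a peptide hormone of muscle and bone that binds the natriuretic peptide clearance receptor. Its signal was 6.70, 6.51 and 6.75 in the GFP arrays and 7.59, 7.21 and 7.26 with PGC-1a1. It was 5.37, 5.63 and 5.55 with PGC-1a2. It was 5.99, 6.25 and 5.71 with PGC-1a3, and 6.21, 5.85 and 5.83 with PGC-1a4. PGC-1a1 was thus high and the 3 other isoforms low, and none of these 4 groups overlapped GFP. Ostn rose by 0.70 ± 0.15 log2 (SE, adjusted p = 0.016, 1.63-fold) in PGC-1a1. Relative to GFP the changes were -1.13 ± 0.15 in PGC-1a2 (adjusted p = 0.00098), -0.67 ± 0.15 in PGC-1a3 (adjusted p = 0.021) and -0.69 ± 0.15 in PGC-1a4 (adjusted p = 0.0099). It was the only gene of the 9 called against GFP in all 4 isoforms, and PGC-1a1 moved it opposite to the others.

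The rank order of Ostn was PGC-1a1, GFP, PGC-1a3, PGC-1a4 and PGC-1a2. The neighbours PGC-1a3 and PGC-1a4 differed by 0.02 ± 0.15 (adjusted p = 0.95, 95% interval -0.31 to 0.36), and PGC-1a2 was below PGC-1a4 by -0.45 ± 0.15, which did not pass (adjusted p = 0.053) but did under 6 of the alternatives, with quantile normalization (adjusted p = 0.034) among them. PGC-1a1 exceeded PGC-1a2 by 1.84 ± 0.15 (adjusted p = 6.9e-06), a 3.57-fold difference and the largest of all 90 differences computed for the 9 genes. The rise in PGC-1a1 was 0.63 without GFP replicate 2 (adjusted p = 0.056) and 0.58 without PGC-1a1 replicate 1 (adjusted p = 0.071). The fall in PGC-1a3 missed the threshold without GFP replicate 1 or 3 (adjusted p = 0.056 and 0.075), without PGC-1a3 replicate 1 or 3 (adjusted p = 0.069 and 0.067) and with median centring (adjusted p = 0.059). With only the 2 groups in the fit, the changes in PGC-1a1, PGC-1a3 and PGC-1a4 had adjusted p of 0.077, 0.15 and 0.0503.

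Fndc5 encodes a membrane protein whose extracellular part is released as irisin. Its signal moved within a narrow range. It was 8.68, 8.58 and 8.75 in GFP, and 8.97, 8.96 and 8.97 with PGC-1a4. It was 8.90, 8.87 and 8.81 with PGC-1a1, 8.99, 8.78 and 8.66 with PGC-1a2, and 8.58, 8.56 and 8.53 with PGC-1a3. The PGC-1a4 and PGC-1a1 arrays lay above all GFP arrays, while PGC-1a2 overlapped GFP. The PGC-1a3 arrays lay below GFP only narrowly: the highest was at 8.580 and the lowest GFP array, replicate 2, at 8.583. Fndc5 rose by 0.30 ± 0.08 (adjusted p = 0.024, 1.23-fold) in PGC-1a4. Differences from GFP of 0.19 ± 0.08 in PGC-1a1 (adjusted p = 0.21, 95% interval 0.02 to 0.36), 0.14 ± 0.08 in PGC-1a2 and -0.11 ± 0.08 in PGC-1a3 did not pass.

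The 5 groups of Fndc5 formed a gradual order, PGC-1a4, PGC-1a1, PGC-1a2, GFP and PGC-1a3, in which no neighbours differed past the threshold. Its ends did: PGC-1a3 was below PGC-1a4 by -0.41 ± 0.08 (adjusted p = 0.0019), and below PGC-1a1, which exceeded it by 0.30 ± 0.08 (adjusted p = 0.022). The call in PGC-1a4 against GFP was lost without GFP replicate 1 or 2 (adjusted p = 0.055 and 0.072), without PGC-1a4 replicate 1, 2 or 3 (adjusted p = 0.064, 0.058 and 0.069) and with only these 2 groups in the fit (adjusted p = 0.11). That of PGC-1a1 against PGC-1a3 was lost without PGC-1a1 replicate 1 or 2 (adjusted p = 0.072 and 0.069) and without PGC-1a3 replicate 1, 2 or 3 (adjusted p = 0.056, 0.062 and 0.064).

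Metrnl encodes meteorin-like, a hormone that acts on immune cells and adipose tissue. Its signal was 6.53, 6.48 and 6.69 with PGC-1a4, against 5.53, 5.87 and 5.50 in GFP. It was 5.95, 6.01 and 6.13 with PGC-1a1. With PGC-1a2 it was 5.61, 5.78 and 5.69, and with PGC-1a3 5.59, 5.67 and 5.58. PGC-1a4 stood above every other group, PGC-1a1 came next, and PGC-1a2 and PGC-1a3 lay within the GFP range. Metrnl rose by 0.93 ± 0.10 (adjusted p = 6.4e-05, 1.91-fold) in PGC-1a4, and by 0.39 ± 0.10 (adjusted p = 0.034, 1.31-fold) in PGC-1a1. In PGC-1a2 and PGC-1a3 the differences were 0.06 ± 0.10 (adjusted p = 0.81, 95% interval -0.16 to 0.28) and -0.02 ± 0.10 (adjusted p = 0.93, 95% interval -0.24 to 0.20).

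Between the isoforms that raised Metrnl, PGC-1a1 was below PGC-1a4 by -0.54 ± 0.10 (adjusted p = 0.0052). GFP replicate 2, at 5.87, was the highest of its group, and without it the rises were 1.05 (adjusted p = 2.1e-05) in PGC-1a4 and 0.52 (adjusted p = 0.0036) in PGC-1a1. The call in PGC-1a1 against GFP was lost without GFP replicate 1 or 3 (adjusted p = 0.11 and 0.13) and without PGC-1a1 replicate 1, 2 or 3 (adjusted p = 0.056, 0.09 and 0.13), and with only the 2 groups in the fit it had an adjusted p of 0.23. PGC-1a1 exceeded PGC-1a2 by 0.33 ± 0.10 (adjusted p = 0.034) and PGC-1a3 by 0.42 ± 0.10 (adjusted p = 0.015). The former was lost without PGC-1a1 replicate 2 or 3 (adjusted p = 0.077 and 0.13) or PGC-1a2 replicate 1 or 3 (adjusted p = 0.11 and 0.087), and the latter without PGC-1a1 replicate 3 or PGC-1a3 replicate 1 (adjusted p = 0.069 and 0.054).

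Il15 encodes interleukin-15, a cytokine made in muscle that is presented to responding cells on its receptor alpha chain. Its signal was 7.12, 7.02 and 6.86 with PGC-1a4, above every other array. In GFP it was 6.32, 5.70 and 6.19, and with PGC-1a1 6.57, 6.39 and 6.32. The PGC-1a2 arrays read 5.95, 5.35 and 5.29 and the PGC-1a3 arrays 6.14, 5.79 and 5.50, so both overlapped GFP from below. Il15 rose by 0.93 ± 0.21 (adjusted p = 0.0097, 1.91-fold) in PGC-1a4. The differences of 0.36 ± 0.21 in PGC-1a1 (adjusted p = 0.41), -0.54 ± 0.21 in PGC-1a2 (adjusted p = 0.14) and -0.26 ± 0.21 in PGC-1a3 (adjusted p = 0.53) did not pass. With the same SE, PGC-1a2 was below PGC-1a4 by -1.47 (adjusted p = 0.00019) and PGC-1a3 by -1.19 (adjusted p = 0.001), and PGC-1a1 exceeded PGC-1a2 by 0.90 (adjusted p = 0.0089). No neighbours in the order PGC-1a4, PGC-1a1, GFP, PGC-1a3 and PGC-1a2 differed past the threshold, the widest gap being that of PGC-1a1 to PGC-1a4, -0.57 (adjusted p = 0.12). That gap passed with array weights (adjusted p = 0.04) and with only the 2 groups (adjusted p = 0.046). Without GFP replicate 2, the lowest GFP array for this gene, the rise in PGC-1a4 was 0.75 (adjusted p = 0.036).

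Il6 encodes interleukin-6, which contracting muscle releases and which signals through the shared receptor subunit gp130. Its signal was low. It was 4.26, 3.69 and 4.25 in GFP and 3.18, 3.05 and 2.76 with PGC-1a4. It was 4.13, 3.82 and 3.74 with PGC-1a1, 4.58, 4.49 and 4.09 with PGC-1a2, and 3.95, 4.08 and 3.68 with PGC-1a3. Only PGC-1a4 stood clear of GFP, with all its arrays below the lowest array of any other group. All 3 PGC-1a4 arrays, and 7 of the 15 arrays in all, lay below the lower quartile of their own array, so a signal over background is not established there. The fitted difference of -1.07 ± 0.19 (adjusted p = 0.0021), or -1.26 (adjusted p = 0.00086) without GFP replicate 2, therefore gives a direction and not a measured fold of Il6 RNA.

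With the same limit, Il6 exceeded PGC-1a4 by 1.39 ± 0.19 in PGC-1a2 (adjusted p = 0.00012), by 0.91 ± 0.19 in PGC-1a3 (adjusted p = 0.0032) and by 0.91 ± 0.19 in PGC-1a1 (adjusted p = 0.0097). The last of these had an adjusted p of 0.0505 without PGC-1a4 replicate 3. The other groups, in the order PGC-1a2, GFP, PGC-1a3 and PGC-1a1, did not differ from each other past the threshold. Lif, the gene of leukaemia inhibitory factor and another cytokine of the gp130 family, lay between 3.37 and 3.94 and below the lower quartile on all 15 arrays. Its difference in PGC-1a4 was -0.28 ± 0.13 (adjusted p = 0.21), and the groups overlapped in all 10 comparisons.

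Bdnf encodes brain-derived neurotrophic factor, which supports neurons and is also made in muscle. It lay between 4.65 and 5.25. No isoform differed from GFP past the threshold, the values being 0.23 ± 0.12 in PGC-1a2 (adjusted p = 0.28) and -0.20 ± 0.12 in PGC-1a4 (adjusted p = 0.33). The PGC-1a2 arrays (5.10, 5.25 and 5.24) did, however, lie above the PGC-1a4 arrays (4.68, 4.96 and 4.65), by 0.44 ± 0.12 (adjusted p = 0.014). Significance was lost without PGC-1a2 replicate 2 (adjusted p = 0.052), PGC-1a4 replicate 1 (adjusted p = 0.054) or PGC-1a4 replicate 3 (adjusted p = 0.06), and the F-test over the 5 groups did not pass for this gene.

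Fstl1 encodes follistatin-like 1, a secreted glycoprotein of the SPARC family that is made by muscle and by connective tissue cells. Its signal was 7.72, 7.63 and 7.81 in GFP and 6.99, 7.08 and 7.01 with PGC-1a2. It was 8.13, 8.16 and 8.22 with PGC-1a4 and 8.08, 7.89 and 7.89 with PGC-1a1. With PGC-1a3 it was 7.65, 7.64 and 7.44. PGC-1a2 was the lowest group and PGC-1a4 the highest, with no overlap with any other group on either side. Relative to GFP, Fstl1 changed by -0.70 ± 0.08 in PGC-1a2 (adjusted p = 0.00033) and rose by 0.44 ± 0.08 in PGC-1a4 (adjusted p = 0.0024, 1.36-fold). The differences in PGC-1a1, 0.23 ± 0.08 (adjusted p = 0.12), and in PGC-1a3, -0.15 ± 0.08 (adjusted p = 0.33), did not pass.

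In the order PGC-1a4, PGC-1a1, GFP, PGC-1a3 and PGC-1a2, the last step of Fstl1 alone separated neighbours, at -0.55 ± 0.08 between PGC-1a2 and PGC-1a3 (adjusted p = 0.0016). Across the ends PGC-1a2 was below PGC-1a4 by -1.14 ± 0.08 (adjusted p = 7.7e-07), a 2.2-fold difference in signal. Of the 10 comparisons of Fstl1, 7 passed, and it had the smallest F-test p of the 9 genes. Among them, PGC-1a1 over PGC-1a3 at 0.37 ± 0.08 (adjusted p = 0.0075), was lost with only those 2 groups in the fit (adjusted p = 0.069).

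Dcn, the gene of decorin, a proteoglycan of connective tissue that is also released by muscle, lay between 3.57 and 4.01 and below the lower quartile on 12 of the 15 arrays. Its differences from GFP ran from -0.07 ± 0.14 in PGC-1a2 to 0.09 ± 0.14 in PGC-1a4, and the groups overlapped in all 10 comparisons. Decorin is an abundant product of fibroblasts, so markers of these cells were read beside Fstl1. In bulk samples fewer cells of a type and less RNA per cell cannot be told apart. Of 10 fibroblast markers 1 was called, Postn, a matrix protein gene, at -1.72 ± 0.12 in PGC-1a2 and -0.53 ± 0.12 in PGC-1a3, while the collagen genes Col1a1, Col1a2 and Col3a1 were not. That is 10% of the list in PGC-1a2 and in PGC-1a3, where 9.33% and 7.99% of all rows were called. The summed fibroblast signal ran from 9.66 to 9.75 in GFP, 9.84 to 9.89 in PGC-1a1, 9.17 to 9.27 in PGC-1a2, 9.40 to 9.48 in PGC-1a3 and 9.75 to 9.83 in PGC-1a4. The low sum in PGC-1a2 went with Postn, the only marker called there, while the other 9 did not pass, with Fbln1 at 0.19 ± 0.09, Col3a1 at 0.06 ± 0.06 and Col1a2 at 0.06 ± 0.14, and the list's median difference was 0.02. The part of Postn, or of fibroblasts, in the Fstl1 difference was not tested.

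Against GFP, 11 of 36 differences passed, and PGC-1a4 gave most of them. In PGC-1a4, 6 of 9 genes were called, against 14.3% of all rows: Metrnl, Il15, Fstl1 and Fndc5 rose (7.05% of rows rose) and Ostn and Il6 fell (7.22% fell). In PGC-1a1, 2 of 9 were called, against 6.84% of rows, and both Ostn and Metrnl rose (4.44% of rows rose). In PGC-1a2, 2 of 9 were called, against 9.33% of rows, and both Ostn and Fstl1 fell (4.77% of rows fell). In PGC-1a3, 1 of 9 was called, against 7.99% of rows, and Ostn fell (2.97% of rows fell). The median difference of the 9 genes was 0.19 in PGC-1a1, -0.02 in PGC-1a2, -0.11 in PGC-1a3 and 0.09 in PGC-1a4, where the median of all rows was -0.03, -0.03, -0.02 and -0.02. The 4 comparisons share the GFP arrays, so they are given side by side and not set against each other. With only the 2 groups of a comparison in the fit, 0 of 9 passed in PGC-1a1 and in PGC-1a3, 2 in PGC-1a2 and 4 in PGC-1a4. Calls over all 23332 rows also dropped in that setting, to 393, 173, 36 and 1014 in PGC-1a1 to PGC-1a4. Without GFP replicate 2 the numbers of the 9 genes were 1, 2, 1 and 5 in PGC-1a1 to PGC-1a4. The share of all rows called in that fit is not given here.

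**Figure D2:**
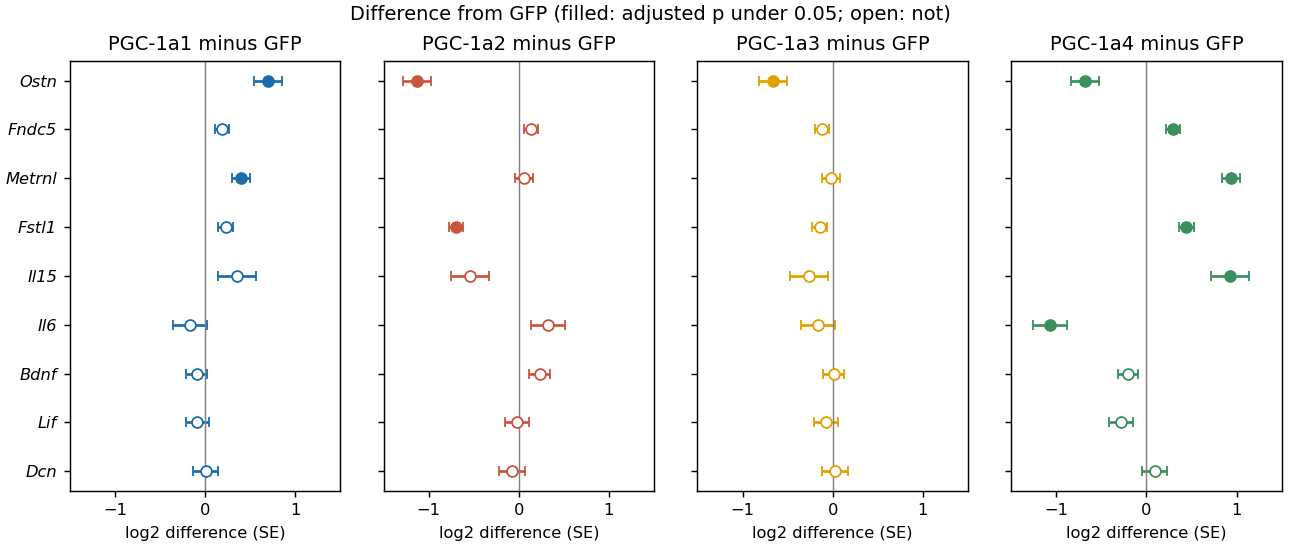
Log2 difference of each of the 9 genes from GFP, with its SE, in a panel per isoform; filled points passed the adjusted p threshold of 0.05 and open points did not. Ostn lies to the right of 0 in PGC-1a1 and to the left in the other isoforms, and PGC-1a4 holds 6 filled points, 4 right and 2 left.

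Set directly against each other, the isoforms differed in 22 of 54 comparisons of these genes. The largest numbers came with PGC-1a4: 5 of 9 against PGC-1a2 (25.2% of all rows were called) and 5 of 9 against PGC-1a3 (23% of rows). In both, Metrnl, Il15 and Fstl1 were higher with PGC-1a4 and Il6 lower. Fndc5 was also higher than with PGC-1a3, and Bdnf lower than with PGC-1a2. PGC-1a1 differed from PGC-1a2 in 4 of 9 (19.2% of rows, 10.2% higher) and from PGC-1a3 in 4 of 9 (14% of rows, 6.48% higher), each time with PGC-1a1 higher, and Ostn, Metrnl and Fstl1 were in both sets. PGC-1a1 and PGC-1a4 differed in 3 of 9 (9.08% of rows): Ostn, by 1.39 ± 0.15 (adjusted p = 0.00029), and Il6 were higher with PGC-1a1, and Metrnl lower. PGC-1a2 and PGC-1a3 differed in 1 of 9, Fstl1, against 9.27% of rows.

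**Figure D3:**
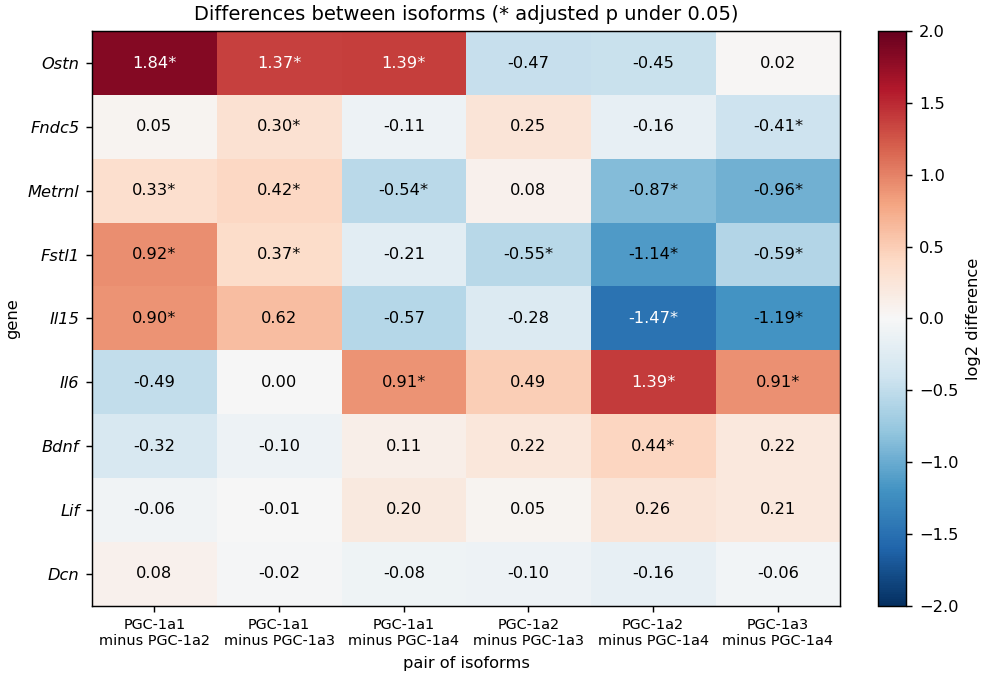
Log2 difference between each pair of isoforms (columns) for the 9 genes (rows), named as the former minus the latter; asterisks mark an adjusted p under 0.05. The Ostn row is red in the 3 columns where PGC-1a1 comes before another isoform, at 1.84, 1.37 and 1.39, and the Il15 and Metrnl rows are blue in the columns that subtract PGC-1a4.

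Receptor genes listed for these factors were read from a list of 22, of which 17 had a row and 11 (64.7%) passed the F-test, where 31.3% of all rows did. Those without a row were Il2rb, Il2rg, Il6ra, Sort1 and Dip2a. With PGC-1a4, 5 of 17 rose and 0 fell, with PGC-1a1 3 rose and 1 fell, in PGC-1a2 0 rose and 3 fell, and in PGC-1a3 0 rose and 5 fell. These are 29.4%, 23.5%, 17.6% and 29.4% of the list, where 14.3%, 6.84%, 9.33% and 7.99% of all rows were called. The list's median difference was 0.05, 0.02, -0.03 and -0.14 in that order. Without GFP replicate 2, the numbers were 4 and 0, 4 and 2, 1 and 3, and 0 and 6. For Il15, its receptor chain gene Il15ra rose by 0.71 ± 0.06 (adjusted p = 3.5e-05) in PGC-1a1 and, under the isoform that also raised the ligand, PGC-1a4, by 0.49 ± 0.06 (adjusted p = 0.00025). Lifr, the receptor gene for leukaemia inhibitory factor, rose by 1.19 ± 0.16 (adjusted p = 0.00036) in PGC-1a4 and by 0.72 ± 0.16 (adjusted p = 0.017) in PGC-1a1. Npr3, the clearance receptor that musclin binds, rose by 0.63 ± 0.10 (adjusted p = 0.0023) in PGC-1a1, where Ostn rose too. Where Ostn fell, Npr3 did not follow: it was at 0.32 ± 0.10 in PGC-1a2 (adjusted p = 0.074), 0.04 ± 0.10 in PGC-1a3 and 0.05 ± 0.10 in PGC-1a4. Il6st, which encodes gp130, changed by -0.23 ± 0.06 in PGC-1a3 (adjusted p = 0.024).

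Other receptor genes went down with PGC-1a2 and PGC-1a3. Npr2, a natriuretic peptide receptor gene, changed by -0.50 ± 0.09 in PGC-1a2 and -0.41 ± 0.09 in PGC-1a3. Egfr, the epidermal growth factor receptor gene, which decorin can bind at the protein level, changed by -0.48 ± 0.10 and -0.64 ± 0.10. Lrp1, an endocytic receptor gene, changed by -0.38 ± 0.07 in PGC-1a1, -0.30 ± 0.07 in PGC-1a2 and -0.35 ± 0.07 in PGC-1a3, and rose by 0.26 ± 0.07 (adjusted p = 0.036) in PGC-1a4. Itgav, an integrin subunit gene reported for irisin, rose by 0.47 ± 0.07 and the sorting receptor gene Sorl1 by 0.45 ± 0.08 in PGC-1a4. Gfral, the receptor gene for the Gdf15 product, was below the lower quartile on all 15 arrays, and Ntrk2, the receptor gene for the Bdnf product, on 13. Npr3, Lifr, Il6st, Itgav, Sorl1, Gfral and Ntrk2 were named after their values were seen.

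**Figure D4:**
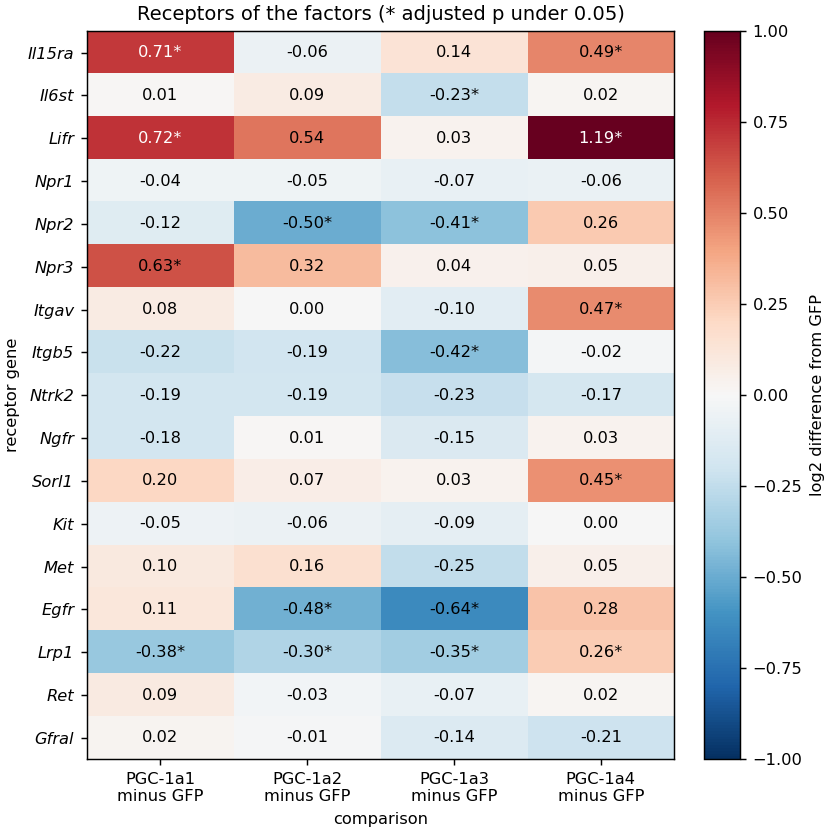
Log2 difference from GFP of the 17 measured receptor genes (rows) in each isoform (columns), with asterisks at an adjusted p under 0.05. Il15ra and Lifr are red and starred under PGC-1a1 and PGC-1a4, while Npr2, Egfr and Lrp1 are blue and starred under PGC-1a2 and PGC-1a3.

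A list of 25 other muscle-secreted factors gave 22 measured genes, of which 12 (54.5%) passed the F-test (31.3% of all rows). Both directions were present in every isoform: 3 rose and 1 fell in PGC-1a1, 4 and 4 in PGC-1a2, 1 and 3 in PGC-1a3, and 4 and 2 in PGC-1a4 (without GFP replicate 2, 2 and 1, 4 and 3, 1 and 3, and 4 and 2). That is 18.2%, 36.4%, 18.2% and 27.3% of the list, against 6.84%, 9.33%, 7.99% and 14.3% of all rows. The median differences, -0.02, -0.02, -0.05 and -0.03, were close to those of all rows. Mstn, which encodes myostatin, an inhibitor of muscle growth, changed by -1.58 ± 0.14 in PGC-1a4 and -0.72 ± 0.14 in PGC-1a3, and rose by 0.69 ± 0.14 in PGC-1a2. Fst, the gene of its antagonist follistatin, changed by -1.13 ± 0.08 in PGC-1a4 and -0.53 ± 0.08 in PGC-1a1, and rose by 0.40 ± 0.08 in PGC-1a2. Vegfa and Vegfb, the genes of angiogenic growth factors, rose in PGC-1a1 (0.32 ± 0.07 and 0.42 ± 0.07) and PGC-1a4 (0.51 ± 0.07 and 0.35 ± 0.07), and fell in PGC-1a2 (-0.25 ± 0.07 and -0.34 ± 0.07). In PGC-1a3 Vegfb changed by -0.37 ± 0.07 (adjusted p = 0.01), while Vegfa, at -0.08 ± 0.07, did not pass.

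Of the 24 measured family relatives of the 9 genes, 5 (20.8%) passed the F-test, where 31.3% of all rows did. Against GFP, 1 to 2 of the 24 were called in each isoform. These are 4.17%, 8.33%, 4.17% and 8.33% of the list in PGC-1a1 to PGC-1a4. Of all rows, 6.84%, 9.33%, 7.99% and 14.3% were called there. Without GFP replicate 2, PGC-1a2 had 1 higher in place of 2, and PGC-1a4 had 2 higher and 4 lower in place of 0 and 2. Ecm2, a leucine-rich matrix protein gene related to decorin, changed by -0.46 ± 0.09 in PGC-1a1 and -0.56 ± 0.09 in PGC-1a4, and rose by 0.34 ± 0.09 in PGC-1a2 and 0.54 ± 0.09 in PGC-1a3. It was below the lower quartile on 8 arrays. Clcf1, a cytokine gene of the Il6 family, changed by -0.38 ± 0.10 (adjusted p = 0.022) in PGC-1a4, the isoform in which Il6 fell. Gdf6, a growth factor gene of the TGF-beta family, rose by 0.61 ± 0.14 (adjusted p = 0.019) in PGC-1a2. Fndc3a, a relative of Fndc5, had 0.48 ± 0.16 there, which did not pass (adjusted p = 0.092).

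Among 17 measured genes of gp130 and JAK-STAT signalling, 7 (41.2%) passed the F-test (31.3% of all rows). In PGC-1a4, 3 rose and 1 fell, 23.5% of the list against 14.3% of all rows, including Stat3, the transcription factor gene downstream of gp130, which rose by 0.40 ± 0.08 (adjusted p = 0.0055). Stat5a changed by -0.27 ± 0.07 (adjusted p = 0.034) in PGC-1a1, and the kinase gene Pim1 by -0.43 ± 0.10 (adjusted p = 0.016) in PGC-1a2. Fos, an immediate early gene, had 0.59 ± 0.31 in PGC-1a4 and -0.79 ± 0.31 in PGC-1a2, neither past the threshold against GFP. In PGC-1a3 limma called 0 of 17, where 7.99% of all rows were called. In PGC-1a1 and PGC-1a2, 5.88% and 11.8% of the list were called, against 6.84% and 9.33% of all rows. Without GFP replicate 2, Stat5a was no longer called in PGC-1a1, and PGC-1a2 had 2 higher and 1 lower in place of 0 and 2.

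Proteases that process secreted factors, with their inhibitors, gave 14 measured genes, of which 9 (64.3%) passed the F-test (31.3% of all rows). In PGC-1a4, 4 rose and 1 fell with all arrays, 35.7% of the list against 14.3% of all rows. Timp2, a metalloprotease inhibitor gene, rose by 0.61 ± 0.05 (adjusted p = 1.7e-05) there, its relative Timp1 by 0.43 ± 0.13 (adjusted p = 0.043), and the sheddase gene Adam10 changed by -0.25 ± 0.07 (adjusted p = 0.025). Mmp14, a membrane metalloprotease gene, rose by 0.69 ± 0.11 (adjusted p = 0.0028) in PGC-1a3 and by 0.43 ± 0.11 (adjusted p = 0.026) in PGC-1a2. Of this list 7.14% was called in PGC-1a2 and 28.6% in PGC-1a3, against 9.33% and 7.99% of all rows. Without GFP replicate 2 the counts in PGC-1a4 were 1 and 1, so at most 1 of the rises of Timp1 and Timp2 was kept. In PGC-1a3 the counts went from 3 and 1 to 1 and 0, while Mmp14 was no longer called in PGC-1a2 and 1 other gene fell there.

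The hormone gene Gdf15 is a known target of the stress factors ATF4 and CHOP, so genes of that response were read in its absence; they do not stand in for it. Of 14 measured, 11 (78.6%) passed the F-test (31.3% of all rows). In PGC-1a4 0 rose and 9 fell (7.22% of all rows fell), with a list median of -0.37 against -0.02 for all rows, and 0 and 7 without GFP replicate 2. Trib3, a pseudokinase gene, changed by -1.36 ± 0.15, the factor gene Atf3 by -0.998 ± 0.12 and the stress sensor gene Sesn2 by -0.82 ± 0.13 in PGC-1a4. Atf5, a related factor gene, was at 0.03 ± 0.09 there and changed by -0.65 ± 0.09 in PGC-1a2. In the other isoforms the list had 1 rise and 1 fall (PGC-1a1), 1 and 4 (PGC-1a2) and 0 and 2 (PGC-1a3). These are 14.3%, 35.7% and 14.3% of the list, against 6.84%, 9.33% and 7.99% of all rows. Without GFP replicate 2 the counts were 1 and 1, 0 and 4, and 0 and 3.

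For each of the 6 genes that passed the F-test, the 3 named genes with the most similar profile were taken by Pearson correlation over the 15 arrays, which share the group structure. Ostn was closest to the mitochondrial genes Ndufa9 (0.935), Ghitm (0.932) and Pdhb (0.923). Fstl1 was closest to Tspyl4 (0.982), Serinc5 (0.979) and Rab6b (0.976), and Il15 to Rp2 (0.969), Hexdc (0.966) and Pitpnc1 (0.962). Metrnl came with Cyp46a1 (0.959), Kctd7 (0.957) and Sorl1 (0.947), the last of which is on the receptor list. Fndc5 came with Sbk1 (0.946), Cemip2 (0.934) and F8 (0.923), and Il6 with Lrrc17 (0.953), Tmem123 (0.952) and Cystm1 (0.948). These are the highest of 5967 or 5968 candidates each and describe likeness only.

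Markers of cell types were read to check the label. Myotube markers gave 10 measured genes, none below the lower quartile on all arrays. Their summed signal ran from 14.52 to 14.60 in GFP, 14.40 to 14.45 in PGC-1a1 and 14.46 to 14.56 in PGC-1a2. It ran from 14.45 to 14.47 in PGC-1a3 and 14.48 to 14.59 in PGC-1a4, so PGC-1a1 and PGC-1a3 lay below GFP. In each isoform 0 rose, and 3, 2, 3 and 1 fell in PGC-1a1 to PGC-1a4. The called share was 30%, 20%, 30% and 10% of this list, against 6.84%, 9.33%, 7.99% and 14.3% of all rows. Without GFP replicate 2 the falls were 4, 2, 2 and 1, of which 3, 1, 2 and 1 were in both counts. Atp2a1 changed by -0.58 ± 0.08 in PGC-1a1 and -0.32 ± 0.08 in PGC-1a4, while 0.20 ± 0.08 in PGC-1a2 did not pass. Myom1 changed by -0.30 ± 0.08 in PGC-1a1, -0.33 ± 0.08 in PGC-1a2 and -0.53 ± 0.08 in PGC-1a3. Myog, a factor gene of myogenic differentiation, changed by -0.46 ± 0.09 in PGC-1a1, -0.37 ± 0.09 in PGC-1a2 and -0.37 ± 0.09 in PGC-1a3. The 5 myoblast markers did not all move together, and 0%, 40%, 0% and 40% of them were called in PGC-1a1 to PGC-1a4. In PGC-1a4 Pax7 went against the others. Myf5, a myogenic factor gene, rose by 0.45 ± 0.07 (adjusted p = 0.0023) in PGC-1a2 and changed by -0.46 ± 0.07 (adjusted p = 0.00091) in PGC-1a4. Pax7, a factor gene of muscle stem cells, went the other way, with -0.26 ± 0.06 (adjusted p = 0.012) in PGC-1a2 and 0.16 ± 0.06 (adjusted p = 0.075) in PGC-1a4, the latter not past the threshold. Between these isoforms Pax7 was lower in PGC-1a2 by -0.43 (adjusted p = 0.00011). Myod1 changed by -0.35 ± 0.09 (adjusted p = 0.027) in PGC-1a4. Top2a and Mki67 were at -0.62 ± 0.21 and -0.51 ± 0.24 there, which did not pass. In PGC-1a2, Myod1, Top2a and Mki67 were at 0.17 ± 0.09, 0.21 ± 0.21 and -0.03 ± 0.24, none past the threshold. The sum of the 5 signals, in which the brighter Myf5 and Myod1 weigh most, was 11.65 to 11.75 in PGC-1a2, above the 11.32 to 11.53 of GFP, and 11.05 to 11.21 in PGC-1a4, below it. Of the macrophage markers 2 of 8 passed the F-test, Itgam and Cd68, of the endothelial 0 of 7, of the adipocyte 1 of 6 and of the Schwann cell markers 1 of 4. These are 25%, 0%, 16.7% and 25% of the lists, where 31.3% of all rows passed. Of the myotube and myoblast lists 50% and 60% passed. Erbb3 alone of the Schwann cell markers was called against GFP. It fell in PGC-1a1, PGC-1a3 and PGC-1a4, 25% of the list each time, against 6.84%, 7.99% and 14.3% of all rows. The Schwann cell sum was 9.78 to 9.81 in GFP and 9.05 to 9.18 in PGC-1a1. It was 9.48 to 9.74 in PGC-1a2, 9.35 to 9.49 in PGC-1a3 and 9.02 to 9.20 in PGC-1a4. Without GFP replicate 2, the myoblast falls were 2, 1, 1 and 4 in PGC-1a1 to PGC-1a4 in place of 0, 1, 0 and 2, and of the 3 macrophage marker calls only the Itgam fall in PGC-1a4 remained. The pan-leukocyte marker Ptprc, which identifies a main source of cytokines, was below the lower quartile on all 15 arrays. The means of Myf5, Myod1 and Top2a were, like that of Il6, highest in PGC-1a2 and lowest in PGC-1a4. Mki67, below the lower quartile on 7 arrays, was highest in GFP and lowest in PGC-1a4. Pax7 was lowest in PGC-1a2 and highest in PGC-1a4. The part of myoblasts in the Il6 result was not tested.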

How the data were processed

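Total RNA of 15 myotube samples was made into sense-strand cDNA, labelled with biotin and measured on mouse exon arrays, per the labels' protocols. The values are log2 signals per row as deposited by the authors. Partek was used, per the submitters' processing notes. The sources used here do not give its version, how background and normalization were handled, or the genome build. Arrays were grouped by their titles. Rows were named through the platform annotation, and list genes through current RefSeq symbols.

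All 23332 rows and 15 arrays were fitted with limma 3.58.1 in R 4.3.3 (lmFit, eBayes), with 10 residual and 2.09 prior degrees of freedom. Each isoform was set against GFP and against each other isoform, 10 contrasts in all. P-values are two-sided, adjusted by Benjamini-Hochberg over all rows within a contrast, and called under 0.05. With 3 arrays per group an exact permutation test has a smallest p of 0.1, so calls rest on the pooled variance. The number of arrays limits the precision. The fit was tested on simulated data.

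The members, lists, contrasts and alternatives were chosen with earlier results of these data known. Named genes are the members, Ppargc1a, up to 4 genes per list with the smallest F-test p, and the 3 closest profiles, with exceptions stated. The lists were other secreted factors, receptors, relatives, gp130 and JAK-STAT signalling, proteases, the ATF4 and CHOP response and cell type markers. Alternatives were quantile normalization, median centring, a filter at percentile 25 on at least 3 arrays, array weights, a robust fit with a variance trend, the replicate number as a block, fitting only the 2 groups of a contrast, averaging a gene's rows, and leaving out each array. List counts without GFP replicate 2 were added after seeing the data.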

Additional observations from a re-analysis of the deposited data

How the results depend on the processing

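Of the 33 called differences, 22 passed under all 23 alternatives, 11 were lost under at least 1, and 0 changed sign. Among these alternatives, averaging a gene's rows could change nothing, as each of the 9 genes had 1 row. Losses came with leaving out an array for 9 of them, where fewer samples are fitted, and with other settings for 6, in each case with only the 2 groups of a contrast and for Ostn in PGC-1a3 also with median centring. The numbers of genes called that moved by over 1.5 times were as follows. With only the 2 groups, PGC-1a1 minus GFP and PGC-1a3 minus GFP had 0 (2 and 1 in the full fit), and PGC-1a3 minus GFP also had 0 with median centring. With array weights, PGC-1a1 minus PGC-1a4 had 5 (3 in the full fit), PGC-1a2 minus GFP had 4 (2), and PGC-1a2 minus PGC-1a3 had 3 (1). The last had 2 with quantile normalization, with the filter and with the variance trend. Leaving out 1 array gave 0 to 2 genes in PGC-1a1 minus GFP, 0 to 1 in PGC-1a3 minus GFP, 2 to 3 in PGC-1a2 minus GFP and 5 to 6 in PGC-1a4 minus GFP. It gave 3 to 5 in PGC-1a1 against PGC-1a2 or PGC-1a3, 2 to 3 in PGC-1a1 minus PGC-1a4, 1 to 2 in PGC-1a2 minus PGC-1a3, 4 to 6 in PGC-1a2 minus PGC-1a4, 5 in PGC-1a3 minus PGC-1a4, and 6 to 7 over the 5 groups. Over all rows, the counts ran from 393 to 2994 in PGC-1a1 minus GFP (1596 in the full fit), from 173 to 3492 in PGC-1a2 minus GFP (2177), from 36 to 3072 in PGC-1a3 minus GFP (1865) and from 1014 to 4240 in PGC-1a4 minus GFP (3331), the lowest each time with only the 2 groups and the highest with array weights. Of the differences not called, 11 passed under at least 1 alternative, 9 of them with array weights: Bdnf in PGC-1a2 against GFP and PGC-1a1, Il15 in PGC-1a2 minus GFP and in PGC-1a1 against PGC-1a3 and PGC-1a4, PGC-1a1 minus PGC-1a2 of Il6, PGC-1a1 minus PGC-1a4 of Fstl1, and PGC-1a2 minus PGC-1a3 of Fndc5 and Ostn. The filter removed Lif. The cause of changes under array weights, median centring and the other scalings was not tested.

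The replicate numbers were not taken as pairs: deviations from the group mean correlated above 0.1 in 11 of 30 same-numbered pairs of arrays (-0.218 to 0.36), and 6 of 15 arrays were closest to an array of the same number. With the replicate number as a block, 7 genes passed over the 5 groups in place of 6. Calls were gained in 4 comparisons: Il15 in PGC-1a2 minus GFP (adjusted p = 0.042), in PGC-1a1 minus PGC-1a3 (0.017) and in PGC-1a1 minus PGC-1a4 (0.034), and Bdnf in PGC-1a1 minus PGC-1a2 (0.04). None of the 33 was lost.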
